A study of Mus musculus with 20 samples.

Results

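The comparison described here sets CD44+CD8+ T cells of tumour-bearing lung after SD-101+anti-PD-1+a-CD4, called the triple treatment, against the same cells after saline. Its members are all arrays with those treatment labels, 4 for the triple treatment and 5 for saline, of 20 arrays in all. The other 11 arrays, 6 of SD-101 and 5 of SD-101+anti-PD-1, entered the estimate of the spread and a closing comparison. In every group the mice carried 4T1, a mouse mammary carcinoma line, in the lung, and treatment was intranasal. SD-101 is labelled as a TLR9 ligand, saline is the control without any of the agents. Anti-PD-1 binds PD-1, which restrains T cell activation. The labels give a-CD4 by name only and do not say what it does. They give neither strain, age, dose nor time, and do not tell if each array stands for its own animal. The p-values therefore measure only how far these samples spread, which may be technical.

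T cells that meet antigen divide, load granules with granzymes and lose the factors that let them circulate, while repeated stimulation brings up inhibitory receptors such as PD-1 and LAG-3. TLR9 senses unmethylated CpG DNA in cells such as B cells and plasmacytoid dendritic cells, and the latter answer with type I interferon. Activated T cells make interferon-gamma. Both interferons switch on antiviral and antigen presentation genes in the cells that receive them.

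The values are log2 intensities of 17097 genes. The genes of the sort did not differ beyond the spread between arrays. Cd8a, a chain of the CD8 co-receptor, had a difference of 0.49 (SE 0.36, adjusted p = 0.49 in limma), and Cd44, the adhesion receptor used for sorting, 0.48 (SE 0.23, adjusted p = 0.232). Of 14 measured T cell identity genes 0 were called in limma, and 0 reached an unadjusted p under 0.05. Their mean log2 value (the list's score) was 9.91, 8.19, 10.17 and 9.97 on triple arrays 1 to 4 and 8.72, 9.55, 9.74, 9.23 and 10.12 on saline arrays 1 to 5. Triple array 2 lay below every other array of both groups, and saline array 1 was the lowest of its group. RNA of lung epithelium was also present on all of these arrays. The alveolar and carcinoma epithelial score was 7.95 to 8.60 on the triple and 7.06 to 8.95 on the saline arrays. The surfactant gene Sftpc read 12.62 on triple array 2, its lowest triple value, where no probe set exceeded 13.23. Differences of the lists below therefore cannot be assigned to T cells alone. The neutrophil score was 8.80, 6.09, 4.40 and 6.14 on the triple arrays and 9.81 on saline array 1, against 3.64 to 4.04 on the other saline arrays. A further split ran through the saline arrays. The 5' 18S ribosomal RNA control probe set read 11.99 and 12 on saline arrays 1 and 2 but 11.44 to 11.50 on saline arrays 3 to 5. On the triple arrays it read 11.98 to 12.17. Counts below are therefore also given in 3 other settings where they changed by over 1.5 times or a result rests on them. These settings are without triple array 2 and saline array 1, without saline arrays 3, 4 and 5, and with the 18S value as a covariate. The last 2 were chosen after the data were seen. Without saline arrays 3, 4 and 5 only saline arrays 1 and 2 remain. Saline array 1, of low T cell identity and high neutrophil score, is thus 1 of 2 controls there. A fit with 4 cell type scores as covariates (endothelial, alveolar epithelial, macrophage and B cell) left 1 call in the whole comparison, so counts in that fit are close to 0 for every list. The endothelial score did not overlap between the triple arrays (5.61 to 6.95) and the saline arrays (6.99 to 8.97). That fit therefore cannot tell this score and the treatment apart.

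With the triple treatment 1218 genes passed the test, 7.12% of those tested. Of these, 700 rose (4.09%) and 518 fell (3.03%), and 3560 genes reached an unadjusted p under 0.05. The median log2 difference of all genes was 0.04. In 828 genes (4.84%) all 4 triple arrays lay above all 5 saline arrays, and in 567 genes (3.32%) below. Of the calls, 25 rises and 14 falls were of predicted genes or small RNAs. The largest rise was of Ubd, an interferon-inducible ubiquitin-like modifier, followed by the inhibitory receptor Lag3. The largest fall was of the airway secretory gene Bpifa1, followed by the endothelial receptor Aplnr. With saline array 3 left out 430 genes rose and 235 fell, and with triple arrays 2 and 4 left out in turn 345 and 335 fell. Without saline arrays 3, 4 and 5, 544 rose and 195 fell, and with the 18S covariate 259 rose and 102 fell.

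**Figure D1:**
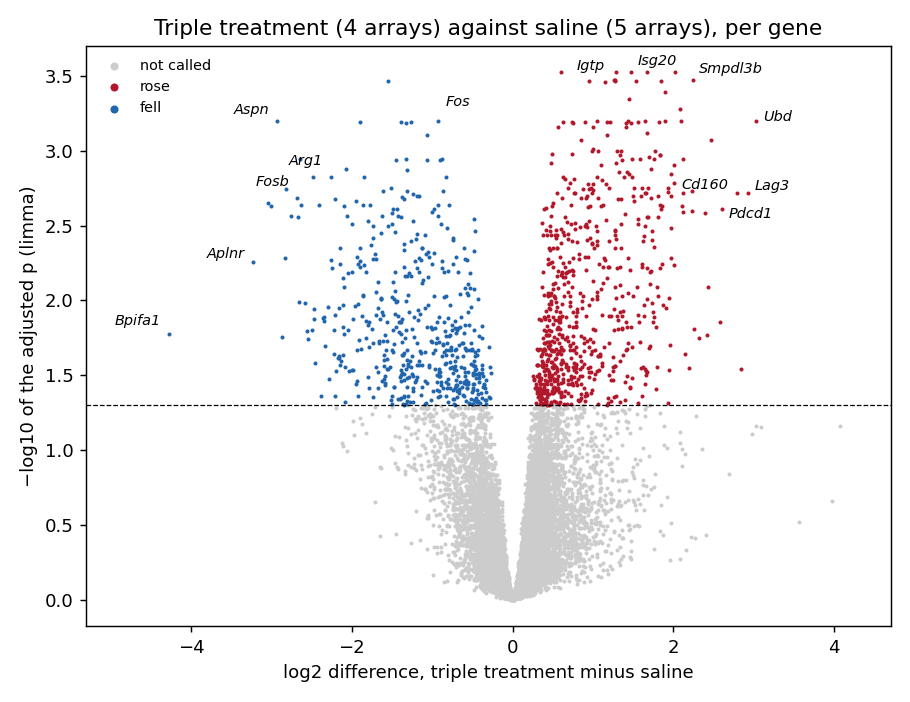
The plot sets each gene's log2 difference between triple treatment and saline (horizontal axis) against the −log10 of its adjusted p from limma (vertical axis), with genes that rose in red, genes that fell in blue and the dashed line at an adjusted p of 0.05. The 700 rises and 518 falls lie above the line, with Ubd farthest right and Bpifa1 farthest left among the called genes.

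The plot of the gene lists shows which groups of genes moved. Cell cycle, inhibitory receptor and both interferon lists lay to the right of 0 in all measured members. Endothelial markers lay to the left in all 26.

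**Figure D2:**
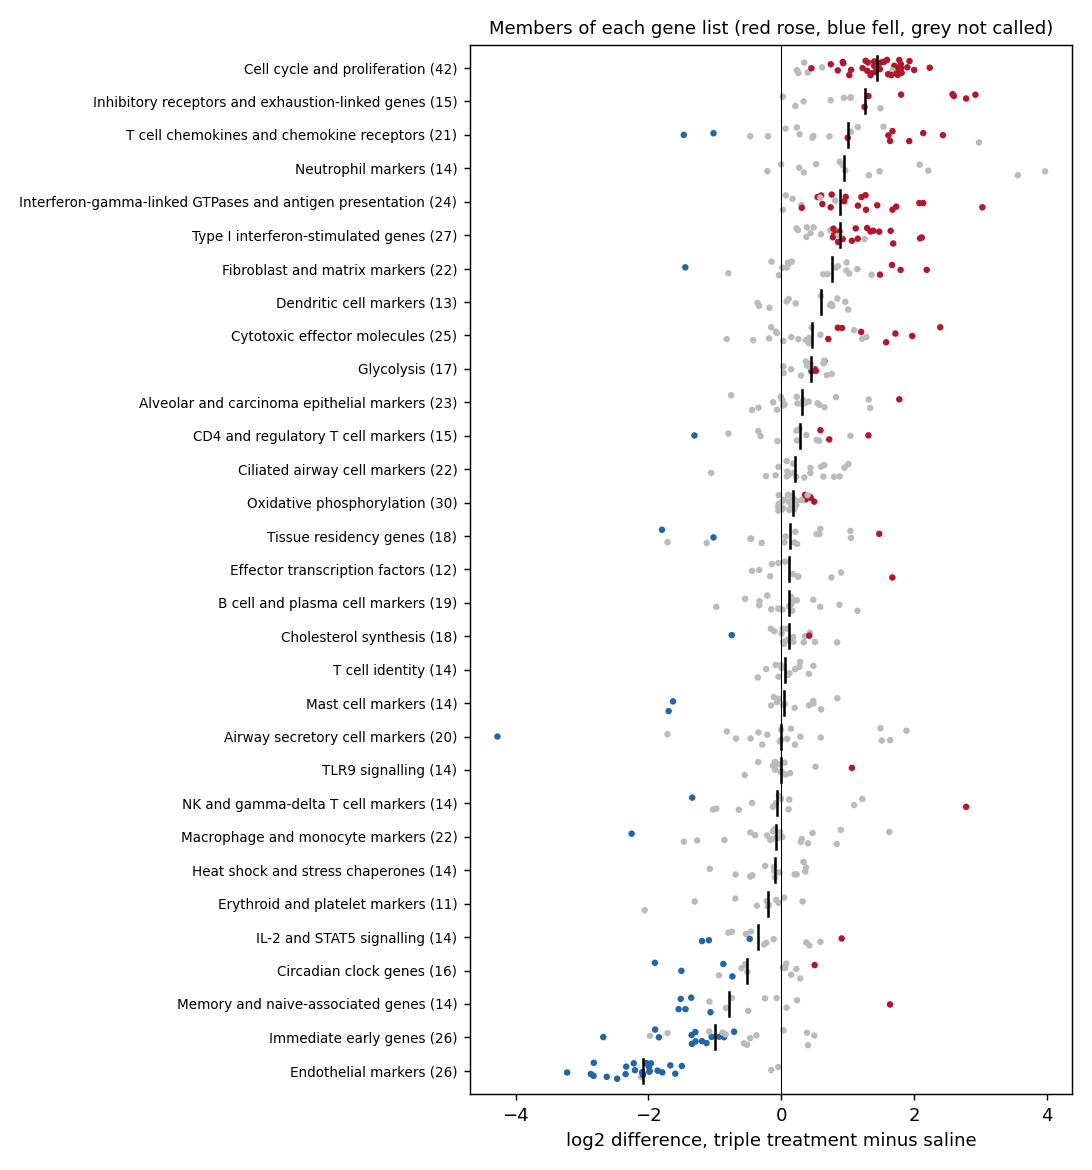
Each point is 1 gene's log2 difference between triple treatment and saline, by list, with the number of measured genes in brackets and the list median as a black bar. Points are red for genes that rose, blue for genes that fell and grey for those not called. The cell cycle list has the highest median at 1.44 and the endothelial list the lowest at -2.08.

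Type I interferon-stimulated genes were higher with the triple treatment: of 27 measured, 17 rose, 0 fell (0 also at an unadjusted p under 0.05 in limma) and 10 passed neither way. All 27 differences were positive with a median of 0.88, and in 14 genes the groups did not overlap. Several have a promoter element bound by interferon-activated factors, for which the letters GAAA, any 2 bases and GAAA again were searched on both strands in the 250 bases before the gene's start and the 50 after it (RefSeq, GRCm38.p6). These letters were found in 9 of 20 list members with a promoter entry (45%), of which 6 of 11 had risen and 3 of 9 had not, against 3.59% of 13593 measured genes with an entry and 3.99% of all 27025 in the table. A match is a description of the sequence and not evidence of binding. The stretches before Ifit1 and Rsad2 are printed because both genes carried the letters and rose with every triple array above every saline array, with matches in capitals (TTTC, any 2 bases and TTTC where the match is on the other strand). Ifit1 lies on the plus strand at chr19:34640769-34640888 and Rsad2 on the minus strand at chr12:26456453-26456582, both printed 5′ to 3′ along the gene.
Ifit1: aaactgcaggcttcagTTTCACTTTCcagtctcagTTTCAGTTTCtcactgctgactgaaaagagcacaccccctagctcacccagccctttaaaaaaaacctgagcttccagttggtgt
Rsad2: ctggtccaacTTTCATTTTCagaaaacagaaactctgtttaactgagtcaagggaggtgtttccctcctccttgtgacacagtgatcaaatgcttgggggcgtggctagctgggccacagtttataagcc

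Ifit1, whose product binds foreign RNA lacking the host's cap, read 7.98, 7.42, 8.51 and 7.33 on triple arrays 1 to 4 and 5.94, 6.37, 6.02, 5.89 and 6.57 on saline arrays 1 to 5. Every triple array was above every saline array, and the difference was 1.65 (SE 0.28, adjusted p = 0.00193 in limma). Rsad2, which encodes the antiviral enzyme viperin, read 7.80, 7.43, 7.99 and 7.05 against 5.31, 5.63, 5.00, 5.42 and 6.03. Its difference was 2.09 (SE 0.29, adjusted p = 0.000638). Isg20, an RNA exonuclease, had narrow groups, at 9.34, 8.84, 9.65 and 9.11 against 7.68, 8.0, 7.34, 7.95 and 7.82. It rose by 1.48 (SE 0.17, adjusted p = 0.0003). Mx1, an antiviral GTPase, read 7.31, 5.50, 7.67 and 6.90 against 4.34, 5.06, 4.74, 4.01 and 5.48, so that triple array 2 lay just above the highest saline array. Mx1 rose by 2.12 (SE 0.38, adjusted p = 0.00258). Zbp1, a sensor of Z-form nucleic acid, rose by 1.39, Ifi44l by 1.69 and the RNA sensor regulator Dhx58 by 1.12. Ifi44l and Dhx58 each had 2 of 3 probe sets called, with lowest differences of 0.024 and 0.016. Ifit2, of the same family as Ifit1, was not called.

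The interferon-stimulated gene count was 14 with triple array 3 left out, 18 without triple array 2 and saline array 1, 16 without saline arrays 3, 4 and 5, and 13 with the 18S covariate, where the list median was 1.05 and all 27 values stayed positive. Against SD-101+anti-PD-1 and against SD-101, both of which also contain the TLR9 ligand, 0 of 27 members differed in either direction in limma (1 lower and 0 higher at an unadjusted p under 0.05 against SD-101+anti-PD-1, 2 higher and 1 lower against SD-101). The list's median differences there were -0.09 and 0.12.

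Interferon-gamma-linked genes rose as widely. Of 24 measured GTPase and antigen presentation genes 18 rose, 0 fell (0 also at an unadjusted p under 0.05 in limma) and 6 passed neither way, with all 24 differences positive, a median of 0.88 and 14 genes without overlap between the groups. The same letters were found in 9 of 19 members with a promoter entry (47.4%), of which 8 of 17 had risen and 1 of 2 had not. The stretches of 3 GTPase genes whose groups did not overlap are printed, all on the plus strand: Igtp at chr11:58199436-58199555, Irgm2 at chr11:58214857-58214976 and Gbp2 at chr3:142620543-142620662. Igtp and Irgm2 lie near each other on chromosome 11, and 87 of the 90 bases laid together around the match were the same (96.7%).
Igtp: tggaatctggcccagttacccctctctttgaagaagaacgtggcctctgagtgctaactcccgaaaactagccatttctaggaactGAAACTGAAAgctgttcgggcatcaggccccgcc
Irgm2: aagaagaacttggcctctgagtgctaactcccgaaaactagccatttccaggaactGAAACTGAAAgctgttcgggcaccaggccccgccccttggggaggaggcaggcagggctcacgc
Gbp2: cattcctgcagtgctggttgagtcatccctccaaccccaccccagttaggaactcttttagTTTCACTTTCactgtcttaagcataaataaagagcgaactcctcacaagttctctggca

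Igtp, an immunity-related GTPase that acts on the vacuoles of intracellular parasites, read 11.45, 10.75, 11.44 and 11.23 on the triple arrays and 9.45, 10.23, 10.17, 9.91 and 9.98 on the saline arrays. It rose by 1.27 (SE 0.15, adjusted p = 0.000339 in limma). Irgm2, a regulatory member of that family, read 9.32, 9.16, 8.94 and 8.67 against 7.43, 7.72, 7.67, 7.93 and 7.13 and rose by 1.45 (SE 0.19, adjusted p = 0.000455). It was the single gene of the comparison still called with the 4 cell type scores as covariates, at 2.05 (adjusted p = 0.000449), where 2558 genes had an unadjusted p under 0.05. Gbp2, a guanylate-binding protein, read 10.81, 10.62, 10.66 and 10.48 against 9.39, 9.61, 9.58, 9.73 and 9.12, a rise of 1.16 (SE 0.15, adjusted p = 0.000348). In each of these genes both groups were narrow and apart. Irgm1 and Iigp1, further GTPases of the immunity-related family, rose by 1.28 and 2.08.

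Among the antigen presentation members the immunoproteasome subunits Psmb8, Psmb9 and Psmb10 rose by 0.55, 0.76 and 0.60 (adjusted p = 0.00192, 0.00192 and 0.00413 in limma), with every triple array above every saline array. Ubd read 7.27, 6.33, 7.42 and 6.69 against 3.43, 3.87, 4.41, 3.97 and 3.82, and its difference of 3.03 (SE 0.42, adjusted p = 0.000638) is an 8.17-fold higher intensity. Cd274, which encodes the PD-1 ligand PD-L1, rose by 0.97 (adjusted p = 0.0227; exact permutation p = 0.0159, 2-sided, adjusted over 12 single genes p = 0.0318), with the groups overlapping. Its call ended with triple array 1 or 3 left out (adjusted p up to 0.0838). The list count was 14 with triple array 1 or 3 left out, 16 without triple array 2 and saline array 1, 16 without saline arrays 3, 4 and 5 and 13 with the 18S covariate. Against SD-101+anti-PD-1, 2 of 24 members were higher, where 0.948% of all genes were. Neither was called there with SD-101+anti-PD-1 array 3 or 4 or triple array 1 left out. They were Ubd, at 1.93 (SE 0.42, adjusted p = 0.0234), and Psmb10, at 0.46 (SE 0.12, adjusted p = 0.0485).

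Inhibitory receptors and genes linked to exhaustion were higher: of 15 measured, 7 rose, 0 fell (0 also at an unadjusted p under 0.05 in limma) and 8 passed neither way. All 15 differences were positive, with a median of 1.26. Pdcd1, the gene of PD-1 itself, read 9.35, 7.25, 9.06 and 9.10 on the triple arrays and 5.90, 6.92, 4.90, 6.73 and 5.99 on the saline arrays. Triple array 2 was the lowest of its group and lay just above the saline arrays. The difference was 2.60 (SE 0.47, adjusted p = 0.00244), a 6.07-fold higher intensity, and the exact permutation p was 0.00794, the smallest that 4 against 5 arrays can give (0.0238 adjusted over 12 genes). Lag3, a receptor for MHC class II, read 9.19, 6.34, 9.05 and 8.42 against 5.10, 5.94, 5.13, 5.69 and 4.77, and rose by 2.92 (SE 0.50, adjusted p = 0.00192). Cd160, a ligand-binding partner of HVEM on cytotoxic cells, read 8.73, 6.49, 8.59 and 8.21 against 4.39, 5.48, 5.31, 5.46 and 5.47, and rose by 2.79 (SE 0.47, adjusted p = 0.00192). In all of these genes triple array 2 had the lowest value of the triple arrays, as it had in the T cell identity score.

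Havcr2, the gene of TIM-3, read 7.58, 4.77, 7.15 and 6.41 against 3.10, 4.30, 3.85, 5.09 and 3.16, and here triple array 2 lay among the saline arrays. It rose by 2.58 (SE 0.60, adjusted p = 0.0139), a call that ended with triple array 1 left out (2.21, adjusted p = 0.0517). The inflammatory protease gene Casp1 rose by 1.81, with triple array 2 the highest of its group at 9.02, and the costimulatory receptors Tnfrsf9 (4-1BB) and Tnfrsf4 (OX40) rose by 1.26 and 1.31. The Tnfrsf4 call ended with triple array 4 left out (adjusted p = 0.0539). Ctla4, the inhibitory receptor that competes for CD28 ligands, had a difference of 1.04 and was not called (adjusted p = 0.312). The list count was 9 without triple array 2 and saline array 1, 4 without saline arrays 3, 4 and 5, and 5 with the 18S covariate. Lag3, Cd160 and Pdcd1 kept their calls in both of those fits, at 2.73, 3.07 and 2.28 in the former (adjusted p = 0.0344, 0.0177 and 0.0361). In limma 0 of 15 members differed from SD-101+anti-PD-1, where 9 were higher and 0 lower at an unadjusted p under 0.05 and the median difference was 1.08. Against SD-101 0 differed, with 5 higher and 1 lower at that level and a median of 0.48.

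Cytotoxic effector genes were higher in part. Of 25 measured 8 rose, 0 fell (0 also at an unadjusted p under 0.05 in limma) and 17 passed neither way, with a median difference of 0.46 and 19 positive values. Gzmb, the granzyme that cleaves caspases, read 11.12, 9.27, 11.50 and 10.91 on the triple arrays and 8.11, 9.43, 8.65, 8.43 and 6.89 on the saline arrays. Triple array 2 overlapped with saline array 2, and the other triple arrays lay above all saline arrays. Gzmb rose by 2.40 (SE 0.43, adjusted p = 0.00259; exact permutation p = 0.0238, adjusted over 12 genes p = 0.0408). Gzmk, a granzyme of another specificity, read 10.48, 8.70, 10.57 and 10.18 against 7.52, 8.61, 8.10, 7.89 and 7.93 and rose by 1.97 (SE 0.32, adjusted p = 0.00144). Klrk1, which encodes the activating receptor NKG2D, rose by 1.72 (adjusted p = 0.00634), and here triple array 2, at 7.51, lay within the saline range of 6.98 to 7.76.

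Prf1, the pore-forming perforin, and Ifng, the gene of interferon-gamma, had differences of 1.28 and 1.22 and were not called (adjusted p = 0.0716 and 0.196; exact permutation p for Ifng = 0.0873). Klrc1, which encodes the inhibitory receptor NKG2A, and the granzyme genes Gzmd and Gzmf rose by 1.58, 0.71 and 0.85, but their calls ended with triple array 1 left out (adjusted p = 0.0691, 0.0727 and 0.0916). The other probe set of Gzmd was at 0.289 and not called. The list count was 3 with triple array 1 left out, 5 with saline array 3 left out, 4 without saline arrays 3, 4 and 5, and 1, Gzmk, with the 18S covariate (1.82, adjusted p = 0.0229), where Gzmb was at 1.91 (adjusted p = 0.0554). In bulk samples like these a change in the number of cells of a type and a change in RNA per cell cannot be told apart. Against SD-101+anti-PD-1 2 of 25 were higher, where 0.948% of all genes were. They were Gzmd at 0.72 (SE 0.18, adjusted p = 0.0436 in limma) and Gzmf at 0.91 (SE 0.22, adjusted p = 0.043). Each call ended in 7 of 9 fits with an array left out (adjusted p up to 0.171 and 0.169). Gzmb and Gzmk were not called there, at 0.30 (SE 0.43) and 0.09 (SE 0.32).

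Among transcription factors of effector cells 1 of 12 rose (8.33%, against 4.09% of all genes), Tbx21, the gene of T-bet, which drives interferon-gamma production. It read 8.21, 6.24, 8.42 and 7.79 on the triple arrays and 5.46, 6.48, 6.47, 5.65 and 5.90 on the saline arrays, so that triple array 2 fell within the saline range. Tbx21 rose by 1.67 (SE 0.35, adjusted p = 0.00607 in limma), and it was not called with the 18S covariate (1.68, adjusted p = 0.0505) or without saline arrays 3, 4 and 5 (1.70, adjusted p = 0.052). Eomes, its relative in memory cells, and Prdm1, the gene of the repressor Blimp-1, had differences of -0.44 and 0.26 and were not called (adjusted p = 0.664 and 0.762).

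Genes of circulating and memory T cells were lower. Of 14 measured, 5 fell, 1 rose and 8 passed neither way, with a median difference of -0.79. The falls numbered 3 with the 18S covariate and 2 without saline arrays 3, 4 and 5. Klf2, the factor that switches on egress genes, read 9.80, 9.10, 10.11 and 9.86 on the triple arrays and 10.75, 10.78, 11.64, 11.62 and 11.37 on the saline arrays. S1pr1, a target of Klf2 and the receptor for the lipid that draws T cells out of tissue, read 7.18, 5.95, 7.37 and 6.93 against 8.16, 7.69, 8.85, 8.55 and 8.25. In both genes every triple array lay below every saline array. Klf2 fell by 1.51 (SE 0.25, adjusted p = 0.00176) and S1pr1 by 1.44 (SE 0.26, adjusted p = 0.00244), each with an exact permutation p of 0.00794, the smallest possible. Saline arrays 1 and 2 were the lowest of the saline arrays for both genes. Without saline arrays 3, 4 and 5 neither was called, at -1.05 for Klf2 (adjusted p = 0.0597) and -1.07 for S1pr1 (adjusted p = 0.0673). With the 18S covariate Klf2 was called at -1.21 (adjusted p = 0.0391) and S1pr1 was not, at -1.16 (adjusted p = 0.0523).

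Klf3, a repressor of the same family, read 8.57, 8.47, 8.82 and 8.43 against 9.76, 9.71, 9.93, 9.64 and 9.15, and here saline arrays 1 and 2 were not low. Klf3 fell by 1.06 (SE 0.16, adjusted p = 0.00079 in limma), and kept its call at -1.16 without saline arrays 3, 4 and 5 (adjusted p = 0.00395) and at -1.12 with the 18S covariate (adjusted p = 0.0101). Bach2, a repressor that holds back effector genes, read 6.16, 5.55, 6.98 and 6.72 against 7.59, 7.84, 7.87, 7.26 and 7.97, a fall of 1.35 (SE 0.26, adjusted p = 0.00417). Its 3 probe sets had differences from -1.354 to -0.224, and 1 of them was called. Bach2 also kept its call without saline arrays 3, 4 and 5, at -1.36, and with the 18S covariate, at -1.34. It was lower than with SD-101+anti-PD-1 by 1.08 (SE 0.26, adjusted p = 0.0403 in limma). Against SD-101 it was lower by 1.11 (SE 0.25, adjusted p = 0.0419). Those 2 calls ended in 6 of 9 and 8 of 10 fits with an array left out (adjusted p up to 0.158 and 0.139). Lef1, a factor of naive cells, fell by 1.54, a call that ended with triple array 1 or 2 or saline array 3 or 5 left out (adjusted p up to 0.0943). The gene that rose was Cxcr3, the receptor for interferon-induced chemokines, by 1.64 (adjusted p = 0.00372), which also belongs to the chemokine list. In the tissue residency list 1 of 18 rose, Isg20, and 2 fell, Rgs2 and Ccr8. These shares were 5.56% and 11.1%, against 4.09% and 3.03% of all genes. Neither fall was called with the 18S covariate or without saline arrays 3, 4 and 5 (adjusted p = 0.0596 and 0.0991 for Rgs2), and that of Ccr8 also ended in 6 of 9 fits with an array left out. Cd69, the antagonist of S1PR1 at the cell surface, had a difference of -1.71 and was not called (adjusted p = 0.0512).

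**Figure D3:**
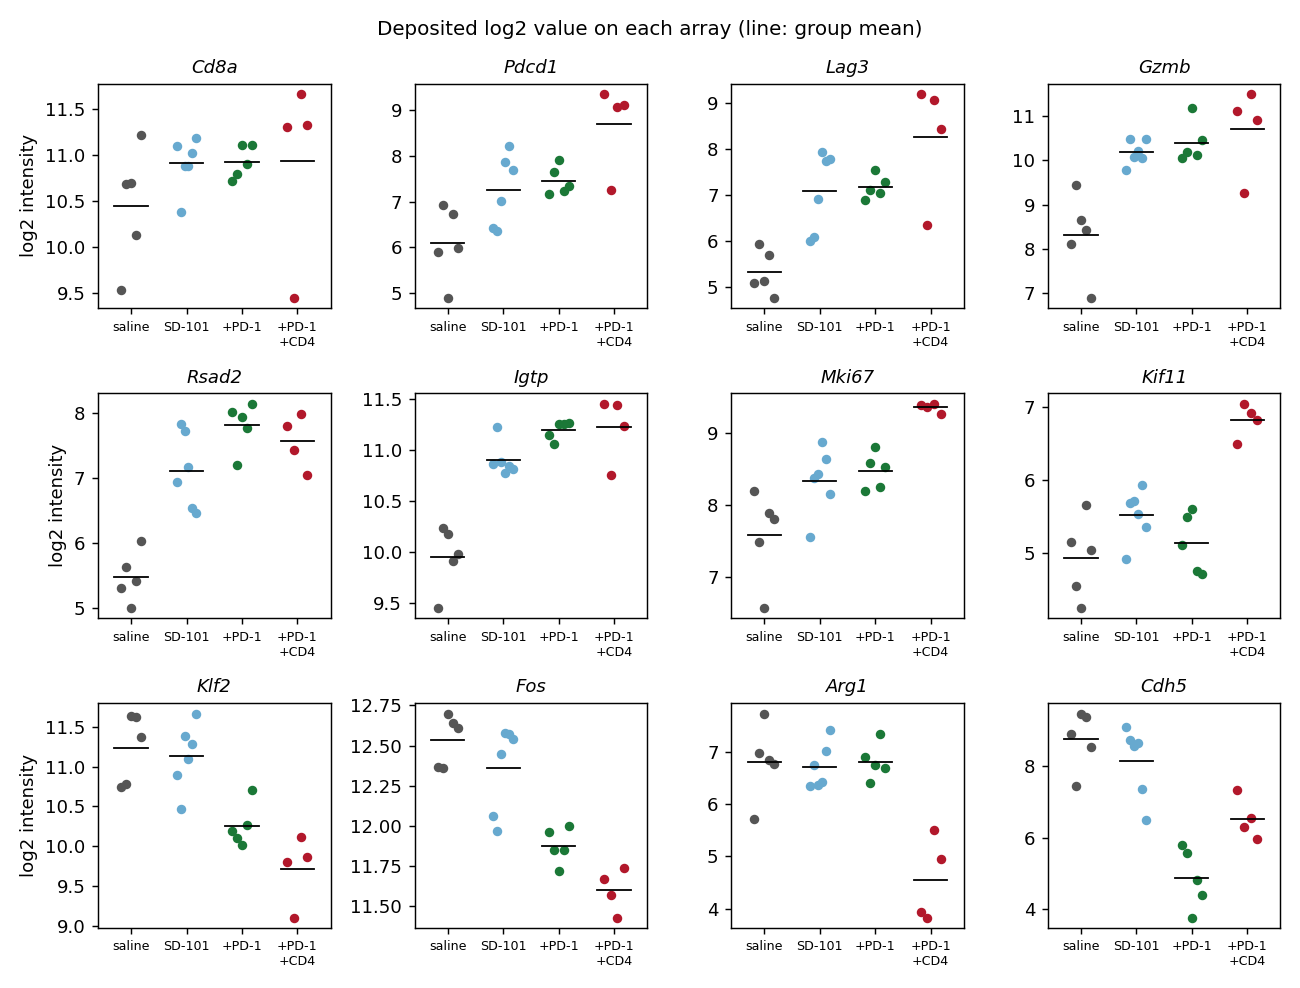
Each panel plots the deposited log2 intensity of 1 gene (vertical axis) on every array of saline, SD-101, SD-101+anti-PD-1 (marked +PD-1) and the triple treatment (marked +PD-1 +CD4), with the group mean as a line. Rsad2, Igtp, Mki67 and Kif11 have every triple array above every saline array and Klf2, Fos, Arg1 and Cdh5 every triple array below, while Cd8a overlaps.

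Cell cycle genes were higher. Of 42 measured 36 rose, 0 fell (0 also at an unadjusted p under 0.05 in limma) and 6 passed neither way, with a median difference of 1.44, all 42 values positive and 32 genes without overlap between the groups. The letters TTTGAA, part of the cell cycle homology element through which many mitotic genes are held down in resting cells, were found on either strand in 14 of 32 members with a promoter entry (43.8%), of which 11 of 27 had risen and 3 of 5 had not. They were found in 15.7% of measured genes with an entry and 20.2% of all in the table, and a match here too is a description. Mki67, which carries the letters at 2 places, lies on the minus strand at chr7:135716380-135716509, and Kif11, with 1 match on the other strand (TTCAAA), on the plus strand at chr19:37376322-37376381. They are printed as the proliferation marker in common use and as a member called against each of the other groups.
Mki67: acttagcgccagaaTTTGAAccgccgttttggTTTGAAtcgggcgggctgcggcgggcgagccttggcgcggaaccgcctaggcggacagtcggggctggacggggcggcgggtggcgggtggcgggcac
Kif11: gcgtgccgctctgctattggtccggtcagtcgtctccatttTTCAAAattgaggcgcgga

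Mki67, which encodes the Ki-67 protein that coats mitotic chromosomes, read 9.39, 9.37, 9.41 and 9.26 on the triple arrays, within a narrow band, and 8.19, 7.49, 6.57, 7.89 and 7.80 on the saline arrays. It rose by 1.77 (SE 0.27, adjusted p = 0.00101 in limma), a 3.40-fold higher intensity, with an exact permutation p of 0.00794 (0.0238 adjusted over 12 genes). Kif11, the kinesin that pushes spindle poles apart, read 6.50, 7.05, 6.92 and 6.83 against 5.15, 4.54, 4.24, 5.65 and 5.04, and rose by 1.90 (SE 0.26, adjusted p = 0.000638). Foxm1, the factor that drives mitotic genes, read 4.96, 6.11, 5.17 and 5.08 against 3.95, 3.98, 3.75, 4.30 and 4.19. Foxm1 rose by 1.30 (SE 0.20, adjusted p = 0.00101), with triple array 2 the highest. Aurkb, the mitotic kinase, and Rrm2, the ribonucleotide reductase subunit of S phase, rose as well. So did Nusap1, a spindle protein, and Ccnb2, a mitotic cyclin. The other probe set of Nusap1 was at 0.204 and not called. Foxm1 had 3 of 4 probe sets called, with the lowest difference at -0.01.

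Triple array 2, the array of lowest T cell identity score, had the highest cell cycle score, at 8.43 against 7.76 to 7.85 on the other triple arrays and 5.92 to 7.34 on the saline arrays. Without it 26 members rose, and without it and saline array 1 together 28 did. The list also held 28 rises without saline arrays 3, 4 and 5, and 14 with the 18S covariate, where all 42 values stayed positive with a median of 1.36. Against SD-101+anti-PD-1 10 of 42 were higher, against a background of 0.948% of genes higher and 1.18% lower in that comparison. This count was 2 with triple array 2 left out and 9 at most with any single array left out. It was 26 without saline arrays 3, 4 and 5, which enter this comparison only through the spread, and 6 with the 18S covariate. Kif11 and Foxm1 were higher there by 1.70 (SE 0.26, adjusted p = 0.00493) and 1.08 (SE 0.20, adjusted p = 0.012) and kept their calls with each of 9 arrays left out in turn. Against SD-101 2 of 42 were higher, Kif11 at 1.31 (SE 0.25, adjusted p = 0.024) and Foxm1 at 0.97 (SE 0.19, adjusted p = 0.0262), where 0.573% of genes were higher and 0.409% lower. Each of those 2 calls ended in 3 of 10 fits with an array left out, while the count was 15 without saline arrays 3, 4 and 5. With the 18S covariate Kif11 and Foxm1 were at 1.22 and 1.04 and not called (adjusted p = 0.561 and 0.536 in limma). The 18S value was lower on every SD-101 array than on every triple array, so that fit cannot tell it from the treatment. At an unadjusted p under 0.05, 40 of 42 were higher than with SD-101+anti-PD-1 and 37 higher than with SD-101.

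**Figure D4:**
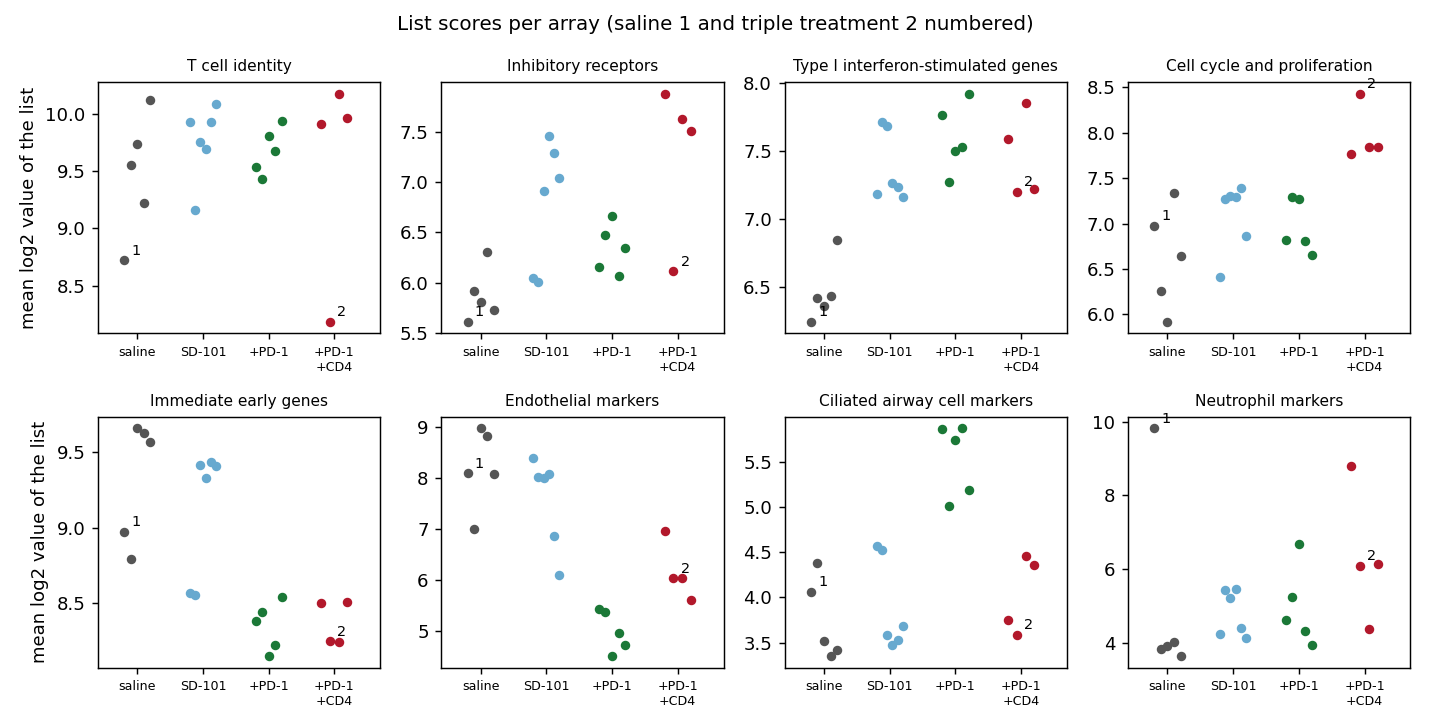
Each panel plots the mean log2 value of a gene list (vertical axis) on every array of saline, SD-101, SD-101+anti-PD-1 (+PD-1) and the triple treatment (+PD-1 +CD4), with saline array 1 and triple array 2 numbered. Triple array 2 is lowest in T cell identity at 8.19 and highest in cell cycle at 8.43, and saline array 1 has the highest neutrophil score at 9.81.

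In glycolysis 4 of 17 rose, 0 fell (0 also at an unadjusted p under 0.05 in limma) and all 17 differences were positive with a median of 0.46. Pfkp, a phosphofructokinase, read 9.41, 9.38, 9.51 and 9.47 on the triple arrays and 8.37, 8.70, 8.67, 9.12 and 9.08 on the saline arrays. Pfkp rose by 0.65 (SE 0.13, adjusted p = 0.00598), but its other probe set was at 0.035 and not called (adjusted p = 0.959). Hk1, a hexokinase, and Hif1a, the hypoxia-inducible factor, rose by 0.46 and 0.52, and Gapdh by 0.51. The other probe set of Hif1a was at -0.153. The glycolysis count was 7 with saline array 4 left out, 2 without saline arrays 3, 4 and 5 and 1 with the 18S covariate. In oxidative phosphorylation 5 of 30 rose, by 0.36 to 0.5, with 26 positive values and a median of 0.18. For Cox5b and Uqcrq, the probe set of highest variance gave the opposite sign, at -0.61 and -0.40, and was not called. The count was 3 with saline array 2, 3 or 4 or triple array 2 left out and 2 in both 18S settings. In cholesterol synthesis 1 of 18 rose and 1 fell (5.56% each, against 4.09% and 3.03% of all genes). The rise was of Ebp, and the fall of the rate-setting enzyme gene Hmgcs1, by 0.74 (SE 0.14, adjusted p = 0.00396 in limma). The Ebp call ended in 8 of 9 fits with an array left out (adjusted p up to 0.133), and that of Hmgcs1 in none.

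Immediate early genes, which are induced within minutes by receptor signals and by tissue handling alike, were lower. Of 26 measured 13 fell, 0 rose (0 also at an unadjusted p under 0.05 in limma) and 13 passed neither way, with a median difference of -0.99. Fos, a subunit of the AP-1 factor, read 11.67, 11.57, 11.43 and 11.74 on the triple arrays and 12.37, 12.36, 12.70, 12.64 and 12.61 on the saline arrays. It fell by 0.93 (SE 0.13, adjusted p = 0.000638). Its relative Fosb read 6.78, 6.65, 5.78 and 6.48 against 8.41, 8.55, 9.47, 9.52 and 9.56, a fall of 2.68 (SE 0.46, adjusted p = 0.00208). Nr4a1, the orphan receptor used to report T cell receptor signals, read 8.18, 7.55, 8.42 and 8.34 against 9.49, 9.13, 10.57, 10.25 and 10.66, a fall of 1.90 (SE 0.38, adjusted p = 0.00547). In all of these genes the groups did not overlap, and saline arrays 1 and 2 had the values nearest to the triple arrays.

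The immediate early score followed the 18S value in the saline arrays. It was 8.97 and 8.79 on saline arrays 1 and 2, 9.57 to 9.66 on saline arrays 3 to 5 and 8.25 to 8.51 on the triple arrays. Without saline arrays 3, 4 and 5, 1 of 26 fell, Fos at -0.76 (adjusted p = 0.02), and with the 18S covariate 5 fell, with Fos at -0.80 (adjusted p = 0.0135). Fosb was at -2.06 (adjusted p = 0.065) without those saline arrays and Nr4a1 at -1.19 (adjusted p = 0.157). With saline array 2 left out 15 fell. Heat shock chaperones had 0 of 14 called in limma (3 lower and 0 higher at an unadjusted p under 0.05), with scores of 8.46 to 8.77 on the triple and 8.42 to 9.13 on the saline arrays.

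Of 16 clock genes 4 fell and 1 rose, with a median difference of -0.52. Dbp, an output factor of the clock, read 5.88, 5.04, 6.62 and 6.28 on the triple arrays and 8.22, 7.82, 8.06, 7.76 and 7.41 on the saline arrays. It fell by 1.90 (SE 0.37, adjusted p = 0.00445 in limma), and saline arrays 1 and 2 did not stand apart. Its relatives Hlf and Tef fell by 1.5 and 0.73. Nr1d2, which encodes the repressor REV-ERB beta, read 8.79, 8.64, 8.53 and 8.59 against 9.58, 9.46, 9.68, 9.61 and 9.21 and fell by 0.87 (SE 0.15, adjusted p = 0.00186). Cry1, a core repressor, rose by 0.50. Without saline arrays 3, 4 and 5 Dbp, Nr1d2 and Cry1 kept their calls, while Hlf and Tef lost theirs (adjusted p = 0.0534 and 0.0713) and Per3, a period gene not called with all arrays, was called at -1.4 (adjusted p = 0.011). With the 18S covariate Dbp, Hlf and Nr1d2 were called. The labels give no hour of collection.

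Chemokine genes rose in 7 of 21 cases and fell in 2, with a median difference of 1.0. Ccl3, a chemokine made by activated T cells, rose by 2.44 (SE 0.52, adjusted p = 0.00813 in limma) with every triple array above every saline array. Cxcl9 and Cxcl10, interferon-induced ligands of CXCR3, rose by 2.14 and 1.68, and Ccl4, Cxcl11 and the fractalkine receptor gene Cx3cr1 by 1.61, 1.93 and 1.0. The falls were of Ccr9, the gut-homing receptor, by 1.47, and Ccr8. Ccr9 had 3 of 4 probe sets called, with the highest difference at 0.088. The calls of Ccl4, Cx3cr1, Cxcl9, Cxcl10 and Ccr8 each ended with 1 or more arrays left out (adjusted p up to 0.135, 0.067, 0.0711, 0.076 and 0.127). The count of rises was 3 with saline array 3 or triple array 1 or 3 left out, 4 with saline array 5 left out, and 1, Cxcr3, in both 18S settings. In TLR9 signalling 1 of 14 rose (7.14%, against 4.09% of all genes), Irf7, the interferon regulatory factor that is itself interferon-induced, by 1.06. Its call ended with saline array 1 or triple array 1 or 3 left out (adjusted p up to 0.0803 in limma). Tlr9 itself had a difference of -0.01 (exact permutation p = 0.976).

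Among IL-2 and STAT5 genes 1 of 14 rose and 3 fell (7.14% and 21.4%, against 4.09% and 3.03% of all genes). Il15ra, which presents IL-15 to neighbouring T cells, read 7.08, 7.24, 7.24 and 6.94 on the triple arrays and 5.77, 5.93, 6.56, 6.47 and 6.35 on the saline arrays. It rose by 0.91 (SE 0.17, adjusted p = 0.00307 in limma), and by 1.27 without saline arrays 3, 4 and 5 (adjusted p = 0.00361). The falls of Il2, Pim1 and Mcl1 were lost as calls with saline array 3 or 5 or triple array 2 left out (adjusted p up to 0.0929, 0.106 and 0.143). Cd4 was low on all arrays, at 3.15 to 3.51 on the triple and 2.73 to 3.42 on the saline arrays, with a difference of 0.23 (exact permutation p = 0.151). Foxp3, the factor of regulatory T cells, read 4.06, 4.01, 4.46 and 4.19 against 3.23, 3.67, 3.69, 3.91 and 3.44, just above the saline arrays in every triple array. It rose by 0.59 (SE 0.14, adjusted p = 0.0156; exact permutation p = 0.0159), a call that ended with triple array 3 left out (adjusted p = 0.0565). In its list 3 of 15 rose, Foxp3, Tnfrsf4 and Il10, and 1 fell, Nrp1, which blood vessels also express, by 1.31. The count of rises was 5 with triple array 2 left out and 1 with triple array 3 left out or without saline arrays 3, 4 and 5.

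Markers of blood vessel cells were lower in the sorted material. Of 26 endothelial markers 23 fell, 0 rose (0 also at an unadjusted p under 0.05 in limma) and 3 passed neither way, with a median difference of -2.08. Their score was 6.95, 6.03, 6.03 and 5.61 on the triple arrays and 8.09, 6.99, 8.97, 8.82 and 8.07 on the saline arrays, so that the groups did not overlap and saline array 2 lay nearest to the triple arrays. Cdh5, the cadherin of endothelial junctions, read 7.32, 6.29, 6.54 and 5.96 against 8.89, 7.45, 9.47, 9.38 and 8.53. It fell by 2.22 (SE 0.53, adjusted p = 0.0158). Vwf, the clotting factor stored in endothelial granules, read 7.43, 6.39, 6.60 and 5.59 against 8.68, 7.84, 10.15, 9.72 and 9.26, a fall of 2.63 (SE 0.46, adjusted p = 0.00232). The endothelin receptor gene Ednrb fell by 2.82 and Aplnr by 3.22. The count was 12 with triple array 4 left out, 13 with saline array 3 left out, and 11 without triple array 2 and saline array 1. It was 1, Ednrb, both without saline arrays 3, 4 and 5 (-2.72, adjusted p = 0.0277) and with the 18S covariate (-2.44, adjusted p = 0.0342), where the list medians were -1.39 and -1.26 and all 26 values stayed negative. Compared with SD-101+anti-PD-1, whose endothelial scores ran from 4.50 to 5.43, the triple arrays were all higher. The part of endothelial material in the T cell results above was not tested. The fit with the 4 cell type scores cannot tell it from the treatment, because the endothelial score did not overlap between triple and saline arrays.

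Other cell type lists had at most 5 calls, where 4.09% of all genes rose and 3.03% fell. Arg1, which encodes the arginase of alternatively activated macrophages, was the 1 fall among 22 macrophage markers, at 3.93, 3.83, 5.51 and 4.95 on the triple arrays and 5.72, 6.97, 7.73, 6.84 and 6.77 on the saline arrays. It fell by 2.25 (SE 0.37, adjusted p = 0.00151 in limma), and was at -1.79 without saline arrays 3, 4 and 5 (adjusted p = 0.036). The macrophage score itself was 4.44 to 5.26 on the triple arrays and 4.55 to 5.47 on the saline arrays. Stab2, a scavenger receptor of sinusoidal vessels, read 3.54, 3.25, 4.97 and 4.88 against 5.77, 7.17, 7.57, 6.40 and 7.11 and fell by 2.65 (SE 0.41, adjusted p = 0.00113). The neutrophil list had 0 of 14 called in limma (2 higher and 0 lower at an unadjusted p under 0.05), and 4 rose with saline array 1 left out. Fibroblast and matrix genes rose in 4 of 22 cases, the collagens Col1a1 and Col5a2, the collagen crosslinker Lox and elastin (Eln), and 1 fell. That count was 1 with saline array 3, 4 or 5 or triple array 1, 2 or 4 left out and 0 in both 18S settings, and in limma 11 members were higher and 1 lower at an unadjusted p under 0.05. Lox had 2 of 3 probe sets called, with the lowest difference at 0.026. Bpifa1, an airway surface protein, fell by 4.27 (SE 1.03, adjusted p = 0.0168), a call that ended with saline array 3 or triple array 2 or 3 left out (adjusted p up to 0.0539). Among NK and gamma-delta T cell markers Cd160 rose and the factor gene Sox13 fell, among mast cell markers the receptor gene Kit and the factor gene Gata2 fell, and among alveolar epithelial markers the junction gene Cldn4 rose. The calls of Sox13, Kit and Gata2 ended in both 18S settings. Gata2 lost its call in 7 of 9 fits with an array left out and Cldn4 in 6 (highest adjusted p 0.0976 and 0.128), and Sox13 without saline array 3 (0.0562). B cell, dendritic, ciliated airway, erythroid and platelet markers had 0 called in limma. At an unadjusted p under 0.05 the B cell list had 0, the dendritic list 2 higher, the ciliated list 2 higher and 1 lower, and the erythroid and platelet list 3 lower.

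**Figure D5:**
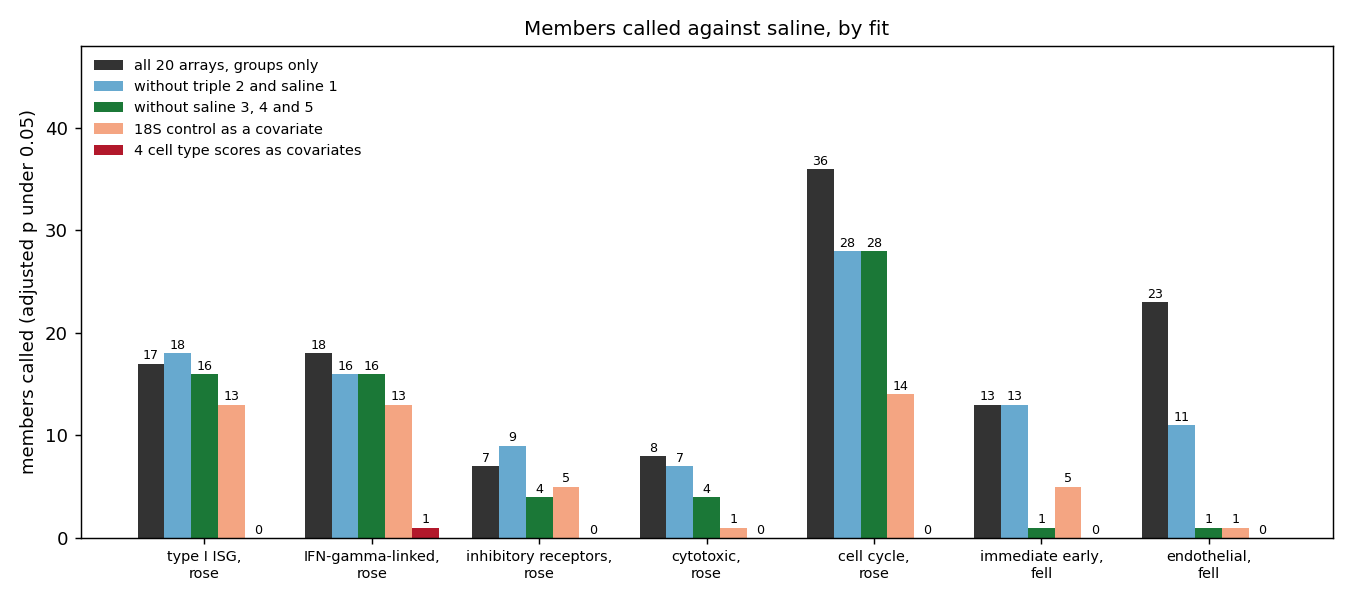
Bars give the number of list members called against saline (vertical axis) in 5 fits: all 20 arrays with groups only, without triple array 2 and saline array 1, without saline arrays 3, 4 and 5, with the 18S control as a covariate, and with 4 cell type scores as covariates. The type I interferon-stimulated genes (ISG) and the interferon-gamma-linked list keep 13 or more calls in the first 4 fits, while the endothelial list has 23, 11, 1 and 1 there.

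The remaining question was whether the triple treatment differed from SD-101+anti-PD-1, which lacks a-CD4, and from SD-101. Against SD-101+anti-PD-1 162 genes were higher (0.948%) and 202 lower (1.18%), and against SD-101 98 were higher (0.573%) and 70 lower (0.409%). These comparisons share the triple arrays with each other and with the comparison against saline. Of 22 ciliated airway cell markers 15 were lower than with SD-101+anti-PD-1, among them the ciliary master factor Foxj1 at -1.76 (SE 0.27, adjusted p = 0.00493 in limma). The ciliated score was 3.59 to 4.45 on the triple and 5.01 to 5.87 on the SD-101+anti-PD-1 arrays, and the count was 2 with triple array 2 left out. On the saline arrays the score was 3.35 to 4.37 and on the SD-101 arrays 3.47 to 4.57, so that SD-101+anti-PD-1 was the group that stood apart. Against SD-101, H2-Ob, an MHC class II chaperone subunit of B cells, was lower by 2.48 (SE 0.41, adjusted p = 0.0127). H2-Ob was also called lower than with saline, at -2.05, where its other probe set was at -0.137 and not called. The mean B cell score was 5.42 with SD-101, 4.40 with the triple treatment and 4.32 with saline. The source of the H2-Ob difference was not tested. Also lower than with SD-101 were the mast cell chymase gene Cma1, by 2.08, and the NK receptor gene Ncr1, by 2.89. With the 18S covariate these 3 were not called against SD-101, at -1.75, -2.24 and -2.54 (adjusted p = 0.588, 0.37 and 0.486). Only 1 gene was called in that fit. The 5' 18S control read 11.30 to 11.80 on the SD-101 arrays and 11.98 to 12.17 on the triple arrays. The groups did not overlap in it, so this fit cannot tell the 18S value and the treatment apart.

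The genes Smpdl3b, Penk, Arg1, Stab2 and Bcl2l15 were called against each of the 3 other groups, as were Kif11, Foxm1 and Bach2, described above. With the 18S covariate, which did not overlap between triple and SD-101 arrays, none of these genes was called against SD-101 (adjusted p from 0.486 to 0.596). With the 4 cell type scores none was called against any group. Of those scores the endothelial one did not overlap between the triple arrays and the saline or SD-101+anti-PD-1 arrays. Smpdl3b, a lipid-modifying enzyme of the cell surface, read 7.71, 8.04, 7.44 and 7.23 on the triple arrays and 5.52, 5.41, 5.07, 6.08 and 4.75 on the saline arrays. It was higher than with saline by 2.24 (SE 0.28, adjusted p = 0.00034 in limma), than with SD-101+anti-PD-1 by 1.54 (SE 0.28, adjusted p = 0.0111) and than with SD-101 by 1.47 (SE 0.27, adjusted p = 0.0177). The call against SD-101 ended in 2 of 10 fits with an array left out (adjusted p up to 0.0566). Penk, the precursor of enkephalin peptides, read 7.46, 6.67, 6.18 and 8.36 against 5.78, 5.00, 4.94, 4.96 and 4.64 on the saline arrays, and differed by 2.10, 1.84 and 2.34 from saline, SD-101+anti-PD-1 and SD-101. Its call against SD-101+anti-PD-1 ended in 3 of 9 such fits (adjusted p up to 0.0627). Arg1 and Stab2 were lower than in SD-101+anti-PD-1 by 2.26 and 2.28 and than in SD-101 by 2.16 and 2.37, and these calls held with each array left out in turn, apart from the covariate fits above. Bcl2l15, a member of the BCL2 family, read 6.25, 4.81, 4.04 and 5.33 against 3.29, 2.89, 3.52, 2.91 and 2.87 on the saline arrays. Its differences of 2.01, 1.71 and 1.66 from the 3 other groups were called, the last ending in 3 of 10 fits (adjusted p up to 0.0612).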

How the data were processed

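The members of this comparison and its gene lists were chosen with earlier results of these data known. RNA was measured on Affymetrix arrays of perfect-match probes. The authors deposited log2 values per probe set (array medians 3.52 to 3.75). Per the submitters' processing notes, affy, RMA and limma were used and the build mm8 is named, without versions, roles or order. No further scaling was applied. Array data carry no read depth, and the number of arrays limits precision.

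Probe sets with exactly 1 gene symbol in the platform annotation were kept, 28898 of 45141, and per gene the one of highest mean over all 20 arrays, giving 17097 genes, none removed for a low level. Group means of all 4 groups came from a single fit (limma 3.58.1, R 4.3.3), and differences were tested with the 2-sided moderated test. A gene "rose" or "fell" where the p adjusted over all genes (Benjamini-Hochberg) was below 0.05. Exact permutation tests on 12 single genes were 2-sided and adjusted over those 12. The code was tested on simulated data.

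Named genes were the 12 largest rises and falls, the first 4 measured members and up to 6 called members of smallest p in each of 31 lists, the 12 single genes and the 6 largest rises and falls against each other group. Psmb8, Psmb9, Psmb10, Tnfrsf9 and Cxcl11 fall outside this rule and were chosen after their values were seen. Predicted genes, small RNAs and receptor segments were given as counts. Xist and genes of the Y chromosome were left out of the text.

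Alternatives were other probe set choices, scalings, a filter at a mean of 5, variance models, array weights, 2 groups only, a block on replicate number, triple array 2 and saline array 1 left out, cell type and heat shock scores as covariates, and each array left out in turn. The 18S covariate and the fit without 3 saline arrays were added after the data were seen. Promoter sequences are from RefSeq (GRCm38.p6).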

Additional observations from a re-analysis of the deposited data

Results flagged for a closer look

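In each group of 4 or 5 arrays the highest or lowest array was set against its neighbours with Dixon's test, which by chance flags about 1 in 20 groups. Of 490 values tested 43 stood out (8.78%), and 25 of these were triple array 2.

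Triple array 2 was far below the other triple arrays in the scores of T cell identity (8.19), effector transcription factors (6.59), tissue residency (7.20), chemokines (6.46) and IL-2 signalling (6.90). Among T cell genes it was far below in Cd8a (9.45), Cd8b1 (9.68), Cd3e (7.28), Cd3d (9.92), Pdcd1 (7.25), Ctla4 (5.87) and Prdm1 (4.25). The same held for Id2 (9.78), Cd69 (6.79), Cxcr6 (9.08), Rgs2 (7.11), Cish (6.35) and Socs2 (7.81), and for the alveolar epithelial genes Sftpc (12.62), Ager (9.47) and Sftpa1 (10.87). It was far above the others in the cell cycle score (8.43), Top2a (10.31), Cxcl9 (8.25) and Sqle (8.80).

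Saline array 1 was far above the other saline arrays in the neutrophil score (9.81) and in S100a8 (12.60), S100a9 (12.94), Csf3r (8.84), Cxcr2 (5.84) and Csf1r (5.77). It was far below them in Cd160 (4.39), Sytl3 (4.75), Ifng (6.74), Tnfrsf4 (4.90) and Irgm1 (7.40).

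Saline array 2 was far below in Dusp1 (11.36) and Per1 (6.83) and far above in Mvk (6.07). Saline array 5 was low in the dendritic cell score (5.10), triple array 3 in Serpina3n (6.94) and Zbtb46 (3.15), and triple array 4 in Uqcrq (9.61).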

How the results depend on the processing

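The number of genes called against saline (1218, of which 700 rose and 518 fell) was within 1.5 times that value under the other probe set choices, scalings, variance models, the filter at a mean of 5 and array weights. It was 476 (251 rose, 225 fell) with only the 2 groups fitted. It was 361 (259 and 102) with the 18S covariate, 739 with 195 falls without the 3 saline arrays of low 18S value, and 1 (1 rose, 0 fell) with the 4 cell type scores, where 2558 genes had an unadjusted p under 0.05 in limma. Falls numbered 343 without triple array 2 and saline array 1. With 1 array left out calls ran from 665 (without saline array 3) to 1234 (without saline array 1), rises from 430 to 754 and falls from 235 to 579. Centring each array on its median gave 720 rises and 414 falls, with rises 63.5% of calls against 57.5%.

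Against SD-101+anti-PD-1 (364) the count was 132 with the filter at a mean of 5, 1246 with array weights, 62 without triple array 2 and saline array 1, 17 with the cell type scores and 724 without the 3 saline arrays. It ran from 73 (without triple array 2) to 488 (without triple array 3). Against SD-101 (168) it was 603 with array weights, 56 with only the 2 groups, 51 without triple array 2 and saline array 1, 0 with the cell type scores and 676 given the heat shock score as a covariate. It was 1 with the 18S covariate, which did not overlap between the triple and SD-101 arrays, and 366 without the 3 saline arrays. With 1 array left out it ran from 35 (without triple array 1) to 220 (without SD-101 array 2). Signs reversed for Tek (0.259), Cdh5 (0.157) and Cldn5 (0.06) with the cell type scores, which include an endothelial score, and for Cox5b (-0.606) and Uqcrq (-0.402) with the probe set of highest variance. The cause of these shifts was not tested.

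Arrays share only a replicate number across groups: the correlations of same-numbered deviations were 0.38, -0.26, 0.28 and -0.39, and 1 of 4 triple arrays correlated best with its own number. With the replicate block 1268 genes were called against saline (644 rose, 624 fell) and 242 against SD-101+anti-PD-1. Of 118 named genes called against saline, 81 kept their call with each array left out in turn.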
